A study of Homo sapiens with 12 samples.

Results

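Collagens are proteins of the extracellular matrix in which alpha chains wind into a triple helix, and each chain has its own gene. Fibrillar chains build the rope-like fibrils of bone, tendon, skin and cartilage, and basement membrane (type IV) chains build the sheet under epithelia and vessels. Type VI chains form beaded microfibrils around cells, and type IX chains sit on the surface of cartilage fibrils as fibril-associated collagens with interrupted triple helices (FACIT). Chains of many types assemble only with partner chains, and each is hydroxylated, folded by chaperones, trimmed and crosslinked on its way into the matrix. Ewing sarcoma is a tumour of bone and soft tissue driven by a fusion of EWSR1 with an ETS factor.

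The collagen alpha chain genes were taken as the protein coding genes with a symbol of COL, digits, A, digits. The gene table held 33 such rows of 21569, from 44 chains in the symbol list. All 11 fibrillar chains, 4 of 6 basement membrane chains, 3 of 5 type VI chains and all 3 type IX chains were among them. COL4A1, COL4A2, COL6A5, COL6A6, COL8A1, COL10A1, COL17A1, COL20A1, COL22A1, COL23A1 and COL26A1 were not analysed here.

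RNA with a poly(A) tail was sequenced from TC71 cells, a human line of this tumour, in 12 libraries. The groups were a line labelled rescue that derives from ID2 knockout clone 2 and carries the knockout too, ID2 knockout clone 2, ID2 knockout clone 1 and wild-type TC71, with 3 libraries each. All were grown in DMEM with 10% FBS, and each knockout group is 1 clone of 1 cell line, so clone and knockout cannot be told apart. ID2 pairs with E proteins through its helix-loop-helix region and so blocks their DNA contact. Each library had a total of 19420408 to 29748084 raw read counts. ID2 RNA averaged 41.5 ± 0.537 CPM in the libraries labelled rescue, 50.9 ± 3.16 in clone 2, 18.1 ± 0.777 in clone 1 and 77.9 ± 0.657 in wild-type (mean ± SD, n = 3 each). The libraries labelled rescue thus held less ID2 RNA than clone 2, with a log2 fold change of -0.29 ± 0.047 (SE, adjusted p = 3.52e-06), which goes against that label. A knockout can leave RNA in place, and RNA of a rescue construct may lie outside the counted gene, which could not be checked.

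Levels are given as CPM, counts scaled to a common library size, after TMM scaling, and differences as log2 fold changes from edgeR's quasi-likelihood test over all 12 libraries. A gene was called higher or lower at a Benjamini-Hochberg adjusted p under 0.05 over the 17084 genes tested. Whether the 3 libraries of a group are separate cultures is not stated, so the p-values cover the spread among these libraries alone, and that spread may be technical. In bulk RNA, fewer cells that express a gene and less of its RNA per cell cannot be told apart. Both clones were compared with the same wild-type libraries, and the line labelled rescue with the same clone 2 and wild-type libraries, so their calls share samples.

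In clone 1 collagen RNA was mostly higher than in wild-type, and type IX and type VI chains had the largest median fold changes among the classes with more than 1 tested chain. Of the 29 chains that passed the filter on low counts, 18 were higher and 7 lower in clone 1 against wild-type, while 61.5% of all genes tested were called, 30.8% higher and 30.7% lower. With a fold of 2 or more, 14 chains were higher and 6 lower, where 13.7% of all genes were called at that size, 9.61% higher and 4.06% lower. The median log2 fold change of the chains was 1.20, and that of all genes was 0.0064. A chain that passed the filter through 1 high group had to differ from the others, so these counts describe the chains that passed and no more. COL1A2, COL9A1, COL12A1 and COL28A1 did not pass.

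Clone 2 also had more chains above wild-type than below it. In clone 2 17 chains were higher and 5 lower than in wild-type, with 62.1% of all genes called, 31.5% higher and 30.6% lower. At a fold of 2 or more, 6 chains were higher and 3 lower, with 13.3% of all genes called, 10.4% higher and 2.87% lower. The median over chains was 0.75, against 0.013 over all genes. The direct comparison of clone 2 with clone 1 called 6 chains higher and 17 lower in clone 2, with 62.2% of all genes called, 30.3% higher and 31.9% lower. At a fold of 2 or more these were 5 and 9 chains, with 13.9% of all genes, 7.29% higher and 6.64% lower.

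The libraries labelled rescue had less collagen RNA than clone 2 on most chains. Of 29 chains, 20 were lower and 5 higher than in clone 2, while 39.2% of all genes were called, 19.9% lower and 19.3% higher. At a fold of 2 or more 12 chains were lower and 1 higher, with 4.95% of all genes called, 4.47% lower and 0.48% higher. Upper quartile scaling left 3 chains called higher in place of 5. Against wild-type the libraries labelled rescue had 9 chains higher and 13 lower, with 58.4% of all genes called, 28.5% higher and 29.9% lower. At a fold of 2 or more these were 5 and 9 chains, with 10.8% of all genes, 6.78% higher and 3.97% lower.

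Summed over all 33 chains, collagen RNA was 582.3 ± 16.6 CPM in the libraries labelled rescue, 720.9 ± 18.5 in clone 2, 1255 ± 25.1 in clone 1 and 646.0 ± 19.7 in wild-type (mean ± SD, n = 3 each). Clone 1 stood above all other libraries, and the libraries labelled rescue below them all. Of the 26 chains with a mean of 1 CPM or more in a group, 11 had all 4 groups apart with no overlap between any libraries. How many of all genes had all 4 groups apart was not counted, so this number describes these chains alone. COL1A1, COL3A1, COL5A2, COL6A1, COL6A2 and COL9A2 were among these 11. Chromosome medians were taken over the tested genes with a mean of 1 CPM or more over the 12 libraries. Over the 15 chromosomes that hold the chains, this median log2 fold change lay between -0.21 and 0.20 in clone 1 against wild-type. The range was -0.22 to 0.15 in clone 2 against wild-type, and -0.093 to 0.12 in the libraries labelled rescue against clone 2.

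**Figure D1:**
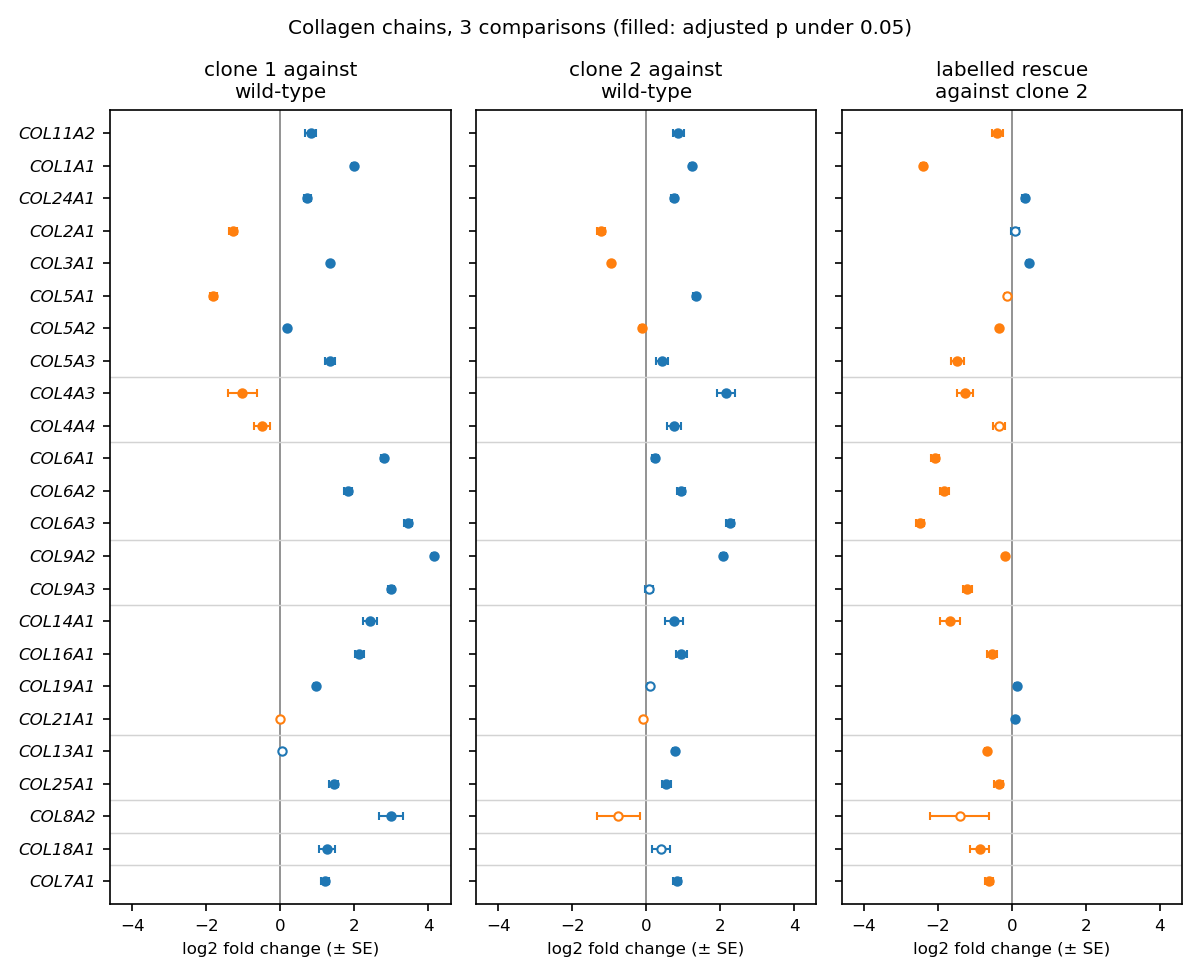
Log2 fold change ± SE (x axis) of each collagen chain with a mean of 1 CPM or more in a group (y axis), with the chains in blocks by class, for clone 1 against wild-type, clone 2 against wild-type and the libraries labelled rescue against clone 2. Filled points passed an adjusted p under 0.05, blue is above 0 and orange below. COL11A1 and COL4A5, with groups at or near 0 reads, are not drawn. COL9A2 lies furthest right in clone 1 at 4.16, and COL6A3 furthest left in the libraries labelled rescue at -2.48.

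Promoter sequence is shown for the 2 type IV gene pairs, whose members start next to each other on opposite strands, and for COL9A2 and COL6A3, the outermost chains in the plot of fold changes. Each line is the 250 bases before a RefSeq start site in GRCh38.p14, read 5′ to 3′ on the gene's strand, with matches to CANNTG, the E-box letters that E proteins bind, in capitals.
COL4A5 (chrX:108439588-108439837, plus strand): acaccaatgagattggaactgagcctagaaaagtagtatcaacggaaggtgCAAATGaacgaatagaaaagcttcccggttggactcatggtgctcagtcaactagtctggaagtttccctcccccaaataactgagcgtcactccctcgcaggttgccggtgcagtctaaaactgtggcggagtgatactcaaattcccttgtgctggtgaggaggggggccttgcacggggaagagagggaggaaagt
COL4A6 (chrX:108439459-108439708, minus strand): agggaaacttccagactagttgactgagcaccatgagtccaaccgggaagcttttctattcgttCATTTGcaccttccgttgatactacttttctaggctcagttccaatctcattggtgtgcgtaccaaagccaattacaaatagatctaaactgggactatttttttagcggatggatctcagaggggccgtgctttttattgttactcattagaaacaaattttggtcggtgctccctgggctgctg
COL4A3 (chr2:227164374-227164623, plus strand): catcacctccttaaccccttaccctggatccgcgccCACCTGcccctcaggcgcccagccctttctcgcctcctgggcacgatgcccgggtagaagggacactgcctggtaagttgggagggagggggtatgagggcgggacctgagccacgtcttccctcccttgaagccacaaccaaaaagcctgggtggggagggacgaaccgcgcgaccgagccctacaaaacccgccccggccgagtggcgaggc
COL4A4 (chr2:227164206-227164455, minus strand): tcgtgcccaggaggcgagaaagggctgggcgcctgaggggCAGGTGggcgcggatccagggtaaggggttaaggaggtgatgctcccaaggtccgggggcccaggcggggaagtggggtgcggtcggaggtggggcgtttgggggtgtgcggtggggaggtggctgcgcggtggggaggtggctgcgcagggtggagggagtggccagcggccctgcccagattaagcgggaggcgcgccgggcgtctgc
COL9A2 (chr1:40317287-40317536, minus strand): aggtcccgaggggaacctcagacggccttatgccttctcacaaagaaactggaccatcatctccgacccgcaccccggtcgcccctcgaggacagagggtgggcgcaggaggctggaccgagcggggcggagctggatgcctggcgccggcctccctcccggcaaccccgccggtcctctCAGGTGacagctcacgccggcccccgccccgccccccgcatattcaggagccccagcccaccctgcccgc
COL6A3 (chr2:237414165-237414414, minus strand): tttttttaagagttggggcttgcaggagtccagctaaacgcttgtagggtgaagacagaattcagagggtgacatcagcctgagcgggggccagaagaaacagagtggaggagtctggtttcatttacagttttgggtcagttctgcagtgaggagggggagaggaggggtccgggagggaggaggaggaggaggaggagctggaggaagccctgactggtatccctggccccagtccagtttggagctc
The COL4A5 and COL4A6 windows overlap, and so do those of COL4A3 and COL4A4, so that within each pair the capitals mark the same bases read from both strands. COL6A3 has no match in its window. CANNTG, which reads alike on both strands, was found in 20 of 35 windows of the 25 chains matched (57.1%), and in 61.8% of 35116 windows of all genes. CCAAT on either strand was found in 7 of the 35 windows and in 32.0% of all windows. COL1A1, COL1A2, COL2A1, COL3A1, COL5A2, COL6A1, COL9A3 and COL14A1 have no entry in the promoter table. A match is a stretch of letters and shows no binding.

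The fibrillar chains did not move as 1 block. In clone 1, 6 of the 10 tested were higher than in wild-type and 3 lower, with a median log2 fold change of 0.77. In clone 2, 5 were higher and 3 lower, with a median of 0.60. Against clone 2, the libraries labelled rescue had 3 higher and 5 lower. For this and the other classes the shares of all genes called were 61.5% in clone 1 against wild-type, 62.1% in clone 2 against wild-type and 39.2% in the libraries labelled rescue against clone 2. The summed fibrillar level was 313.4 ± 8.80 CPM in the libraries labelled rescue, 383.2 ± 15.2 in clone 2, 671.5 ± 16.4 in clone 1 and 394.4 ± 15.0 in wild-type, of which COL5A2 made up between 35.6% and 54.4% in each library.

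COL1A1 (chr17:50183289-50201632, minus strand, hg38) encodes the alpha 1 chain of type I collagen, the main fibril of bone and skin. It had 12.7, 11.7 and 12.8 CPM in the libraries labelled rescue, 64.5, 58.7 and 72.0 in clone 2, 112.3, 109.9 and 106.6 in clone 1 and 26.1, 27.7 and 28.3 in wild-type. The 4 groups did not overlap, with clone 1 highest and the libraries labelled rescue lowest. The fitted log2 fold change was 2.00 ± 0.053 (SE, adjusted p = 4.41e-30) in clone 1 against wild-type, 1.25 ± 0.055 (SE, adjusted p = 4.33e-22) in clone 2 against wild-type, and -2.39 ± 0.062 (SE, adjusted p = 4.6e-29) in the libraries labelled rescue against clone 2. It was also below wild-type in the libraries labelled rescue, at -1.15 ± 0.070 (SE, adjusted p = 1.19e-17).

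COL3A1 (chr2:188974320-189012746, plus strand) makes type III collagen, a homotrimer that shares fibrils with type I in soft tissue. It had 80.0, 79.4 and 81.7 CPM in the libraries labelled rescue, 60.5, 60.4 and 53.9 in clone 2, 294.6, 282.1 and 279.8 in clone 1 and 112.9, 112.8 and 109.8 in wild-type. The clones stood on opposite sides of wild-type with no overlap. The log2 fold change was 1.35 ± 0.036 (SE, adjusted p = 6.82e-30) in clone 1 against wild-type and -0.94 ± 0.041 (SE, adjusted p = 2.13e-22) in clone 2 against wild-type, and -2.29 ± 0.039 (SE, adjusted p = 1.19e-36) for clone 2 against clone 1. COL3A1 was one of the 5 chains that were higher in the libraries labelled rescue than in clone 2, at 0.46 ± 0.042 (SE, adjusted p = 5.47e-12).

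COL5A1 and COL5A2 encode the chains of type V collagen, which starts type I fibrils and sets their width. COL5A1 (chr9:134641774-134844843, plus strand) had 31.2, 31.0 and 30.8 CPM in the libraries labelled rescue, 35.3, 34.97 and 31.0 in clone 2, 3.70, 4.02 and 3.62 in clone 1 and 13.5, 14.4 and 12.3 in wild-type. Here clone 1 was lowest of all and clone 2 highest with the libraries labelled rescue, which overlapped it. Against wild-type its log2 fold change was -1.81 ± 0.097 (SE, adjusted p = 1.32e-19) in clone 1 and 1.34 ± 0.065 (SE, adjusted p = 7.51e-21) in clone 2, and clone 2 exceeded clone 1 by 3.15 ± 0.083 (SE, adjusted p = 4.42e-30). COL5A1 was also above wild-type in the libraries labelled rescue, at 1.22 ± 0.065 (SE, adjusted p = 1.77e-19).

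COL5A2 (chr2:189031896-189225312, minus strand) had 159.4, 147.0 and 159.6 CPM in the libraries labelled rescue, 201.2, 205.5 and 181.6 in clone 2, 244.6, 242.4 and 233.4 in clone 1 and 206.5, 224.0 and 206.0 in wild-type. It was the most abundant chain in CPM in clone 2 and wild-type libraries and in those labelled rescue, and its groups stood apart by small steps. Its log2 fold change was 0.18 ± 0.039 (SE, adjusted p = 0.000122) in clone 1 and -0.11 ± 0.040 (SE, adjusted p = 0.0139) in clone 2 against wild-type, and -0.34 ± 0.040 (SE, adjusted p = 6.76e-09) in the libraries labelled rescue against clone 2. The clone 2 call was lost without clone 2 replicate 3 at -0.072 (adjusted p = 0.117), without wild-type replicate 2 at -0.079 (adjusted p = 0.0947) and with upper quartile scaling at -0.042 (adjusted p = 0.351). COL5A2 lies tail to tail with COL3A1 on chromosome 2, 19.2 kb apart, and COL3A1 moved further from wild-type than COL5A2 in each clone.

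COL5A3, a further type V chain, had 1.87, 1.16 and 1.34 CPM in the libraries labelled rescue, 4.64, 4.30 and 3.15 in clone 2, 8.997, 6.90 and 7.37 in clone 1 and 2.77, 3.22 and 3.07 in wild-type. Clone 1 lay above and the libraries labelled rescue below all others, while clone 2 overlapped wild-type. The log2 fold change was 1.35 ± 0.14 (SE, adjusted p = 4.64e-11) in clone 1 against wild-type and -1.47 ± 0.18 (SE, adjusted p = 1.05e-08) in the libraries labelled rescue against clone 2. In clone 2 against wild-type it was 0.43 ± 0.16 (SE, adjusted p = 0.0161), and that call was lost without clone 2 replicate 1 at 0.28 (adjusted p = 0.188), without clone 2 replicate 2 at 0.39 (adjusted p = 0.0509) and without wild-type replicate 1 at 0.36 (adjusted p = 0.0711).

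COL2A1, the type II chain that makes up cartilage fibrils, had 5.98, 7.67 and 6.16 CPM in the libraries labelled rescue, 6.39, 6.68 and 5.60 in clone 2, 5.05, 6.79 and 5.93 in clone 1 and 14.3, 16.4 and 13.2 in wild-type. Every wild-type library lay above every other library, and the other 3 groups overlapped. The log2 fold change was -1.27 ± 0.10 (SE, adjusted p = 4.9e-14) in clone 1, -1.22 ± 0.10 (SE, adjusted p = 1.93e-13) in clone 2 and -1.14 ± 0.099 (SE, adjusted p = 5.39e-13) in the libraries labelled rescue, each against wild-type.

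COL24A1, a minor fibrillar chain found in developing bone, had 18.9, 17.7 and 20.7 CPM in the libraries labelled rescue, 14.8, 16.1 and 13.8 in clone 2, 14.1, 14.8 and 14.7 in clone 1 and 7.72, 9.90 and 8.82 in wild-type. Wild-type was lowest, both clones overlapped, and the libraries labelled rescue were highest. Its log2 fold change against wild-type was 0.73 ± 0.086 (SE, adjusted p = 1.28e-09) in clone 1 and 0.76 ± 0.086 (SE, adjusted p = 5.15e-10) in clone 2, and 0.36 ± 0.075 (SE, adjusted p = 0.000139) in the libraries labelled rescue against clone 2.

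The type XI chains join type II in cartilage fibrils, and here they went apart. COL11A1 had 4.44, 4.30 and 3.21 CPM in the libraries labelled rescue, 0, 0 and 0.0463 in clone 2, 0, 0 and 0.0412 in clone 1 and 0, 0 and 0 in wild-type, which is 316 reads over the libraries labelled rescue, 1 over clone 2, 1 over clone 1 and 0 over wild-type. It was at or near 0 in all 9 libraries outside those labelled rescue. The ratio of the libraries labelled rescue to clone 2 was 279 (exact 95% interval 49.8 to 11070), and against wild-type the level was at least 98.3-fold higher, from a floor of 3 counts over the group.

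COL11A2 had 3.08, 3.18 and 2.87 CPM in the libraries labelled rescue, 4.15, 3.85 and 3.89 in clone 2, 4.10, 4.20 and 3.21 in clone 1 and 2.22, 2.46 and 1.90 in wild-type. The clones overlapped each other and lay above the libraries labelled rescue, which lay above wild-type. The fold change (log2) was 0.82 ± 0.15 (SE, adjusted p = 1.22e-05) in clone 1 and 0.87 ± 0.15 (SE, adjusted p = 4.35e-06) in clone 2 against wild-type. Against clone 2, the value in the libraries labelled rescue was -0.39 ± 0.14 (SE, adjusted p = 0.0264), a call lost without rescue replicate 1 at -0.38 (adjusted p = 0.06), rescue replicate 3 at -0.33 (adjusted p = 0.0973) or clone 2 replicate 1 at -0.33 (adjusted p = 0.116), and with the DESeq2 Wald test at -0.38 (adjusted p = 0.0789).

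COL1A2 and COL27A1 were the low fibrillar chains. COL1A2, the alpha 2 chain of type I collagen, had 4 reads over the libraries labelled rescue, 3 over clone 2, 24 over clone 1 and 2 over wild-type, and the ratio of clone 1 to wild-type was 12.2 (exact 95% interval 3.04 to 107.0). COL27A1, a chain of cartilage fibrils, had 10 reads over the libraries labelled rescue, 58 over clone 2, 6 over clone 1 and 67 over wild-type. Clone 2 and wild-type libraries overlapped for COL27A1, and so did clone 1 and the libraries labelled rescue at a lower level. Fitted over all libraries, the log2 fold change was -3.38 ± 0.48 (SE, adjusted p = 6.63e-08) in clone 1 against wild-type and -2.67 ± 0.43 (SE, adjusted p = 3.55e-06) in the libraries labelled rescue against clone 2.

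**Figure D2:**
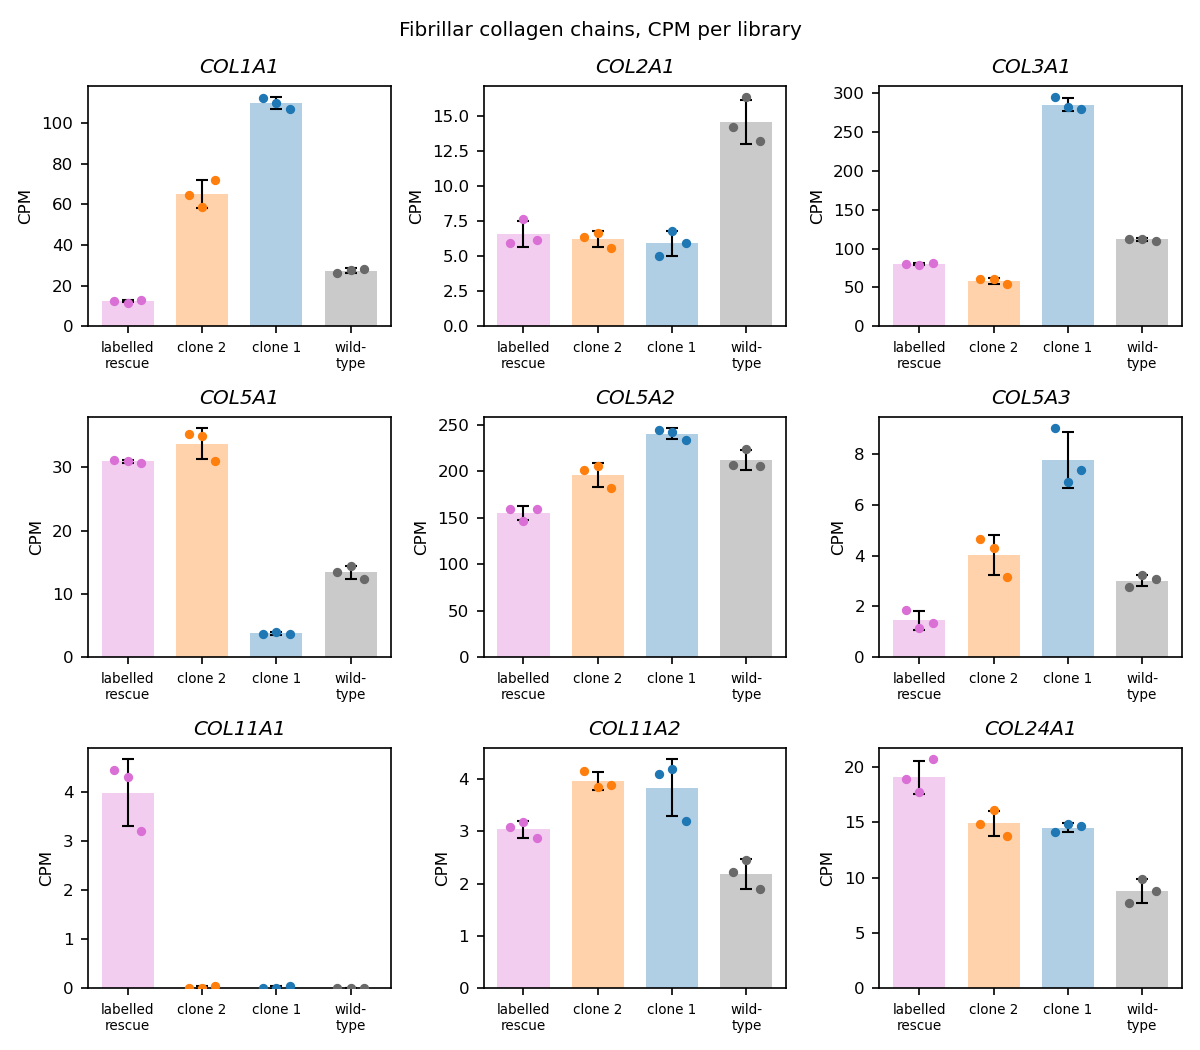
CPM of the 9 fibrillar chains with a mean of 1 CPM or more in a group (y axis, 1 panel a gene) in the libraries labelled rescue, clone 2, clone 1 and wild-type (x axis). Points are libraries, bars are means and error bars are the SD (n = 3). COL3A1 is above wild-type in clone 1 and below it in clone 2, COL5A1 the other way round, and COL11A1 stands above 3 CPM only in the libraries labelled rescue.

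The 4 basement membrane chains analysed were lower in clone 1 and split by gene pair in clone 2. COL4A1 and COL4A2 were not among them, so what follows does not cover the whole class. All 4 were lower than wild-type in clone 1, with a median log2 fold change of -1.52. In clone 2, COL4A3 and COL4A4 were higher and COL4A5 and COL4A6 lower than wild-type. Against clone 2, the libraries labelled rescue had 3 lower. The summed level of these 4 chains was low throughout, at 3.23 ± 0.140 CPM in the libraries labelled rescue, 5.45 ± 0.369 in clone 2, 2.90 ± 0.330 in clone 1 and 8.27 ± 0.421 in wild-type.

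COL4A5, a chain of the kidney and eye basement membrane, starts 347 bases from COL4A6 on the opposite strand of the X chromosome in GENCODE release 29. COL4A5 (chrX:108439844-108697545, plus strand) had 0, 0 and 0 CPM in the libraries labelled rescue, 0.0349, 0.101 and 0.0463 in clone 2, 1.65, 1.46 and 1.07 in clone 1 and 5.33, 5.69 and 5.72 in wild-type. The groups did not overlap, and no read was found in the libraries labelled rescue. Its log2 fold change against wild-type was -2.01 ± 0.17 (SE, adjusted p = 2.26e-13) in clone 1 and -6.49 ± 0.32 (SE, adjusted p = 3.88e-20) in clone 2, the second resting on 4 reads in clone 2. The level in the libraries labelled rescue was at least 147.5-fold lower than in wild-type and at least 1.51-fold lower than in clone 2, both from the floor of 3 counts. The call against clone 2 had an adjusted p of 0.0455 and was lost without rescue replicate 1, 2 or 3 (adjusted p = 0.0975, 0.0939 and 0.0923) and without clone 2 replicate 2 or 3 (adjusted p = 0.129 and 0.0587). It was also lost with no filter (adjusted p = 0.0528), the DESeq2 Wald test (adjusted p = 0.0785) and the replicate block (adjusted p = 0.0508).

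COL4A6, its neighbour, had 2 reads over the libraries labelled rescue, 10 over clone 2, 3 over clone 1 and 37 over wild-type. The wild-type libraries lay above all others, and clone 1 overlapped both other groups. The log2 fold change was -1.78 ± 0.50 (SE, adjusted p = 0.00196) in clone 2 against wild-type, and the ratio of clone 1 to wild-type was 0.0828 (exact 95% interval 0.0163 to 0.262). The ratio of the libraries labelled rescue to clone 2 was 0.177 (0.0188 to 0.83), with an adjusted p of 0.0445. That call was lost without rescue replicate 1, 2 or 3 (adjusted p = 0.0729, 0.158 and 0.0672) and without clone 2 replicate 1 or 2 (adjusted p = 0.253 and 0.0505). No filter, the DESeq2 Wald test and the replicate block ended it as well (adjusted p = 0.0628, 0.115 and 0.0537). Both members of the pair had their fewest reads in the libraries labelled rescue and their most in wild-type.

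COL4A3 and COL4A4, which pair with COL4A5 in the glomerular basement membrane, start 112 bases apart on opposite strands of chromosome 2. COL4A3 had 1.03, 1.08 and 0.917 CPM in the libraries labelled rescue, 2.02, 2.63 and 2.73 in clone 2, 0.350, 0.213 and 0.247 in clone 1 and 0.545, 0.663 and 0.448 in wild-type. All 4 groups were apart, with clone 2 highest and clone 1 lowest. Clone 2 exceeded wild-type by 2.15 ± 0.24 (SE, adjusted p = 3.7e-10) and clone 1 by 3.18 ± 0.28 (SE, adjusted p = 7.19e-13) on the log2 scale. It was lower in the libraries labelled rescue than in clone 2, at -1.26 ± 0.21 (SE, adjusted p = 4.55e-06). The clone 1 call against wild-type, -1.03 ± 0.39 (SE, adjusted p = 0.02), was lost without clone 1 replicate 2 at -0.87 (adjusted p = 0.0941), clone 1 replicate 3 at -0.996 (adjusted p = 0.0529) or wild-type replicate 2 at -0.89 (adjusted p = 0.074).

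COL4A4 had 2.31, 2.02 and 2.25 CPM in the libraries labelled rescue, 2.83, 2.58 and 2.96 in clone 2, 1.15, 0.924 and 1.48 in clone 1 and 1.51, 1.37 and 2.00 in wild-type. Clone 2 was highest again and clone 1 lowest, though clone 1 and wild-type overlapped. Clone 2 exceeded wild-type by 0.75 ± 0.18 (SE, adjusted p = 0.000456) and clone 1 by 1.25 ± 0.20 (SE, adjusted p = 6.57e-07). The clone 1 difference from wild-type, -0.49 ± 0.22 (SE, adjusted p = 0.0464), did not hold without clone 1 replicate 1 at -0.49 (adjusted p = 0.0826), clone 1 replicate 2 at -0.31 (adjusted p = 0.279) or wild-type replicate 3 at -0.31 (adjusted p = 0.301). Nor did it hold with the replicate block (adjusted p = 0.0507), the DESeq2 Wald test (adjusted p = 0.0969), limma-voom (adjusted p = 0.0553) or only the groups compared (adjusted p = 0.0632). Per kilobase of exon, COL4A4 was at 1.98 ± 0.276 times COL4A3 in the libraries labelled rescue, 1.04 ± 0.196 in clone 2, 4.11 ± 1.24 in clone 1 and 2.81 ± 1.11 in wild-type.

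**Figure D3:**
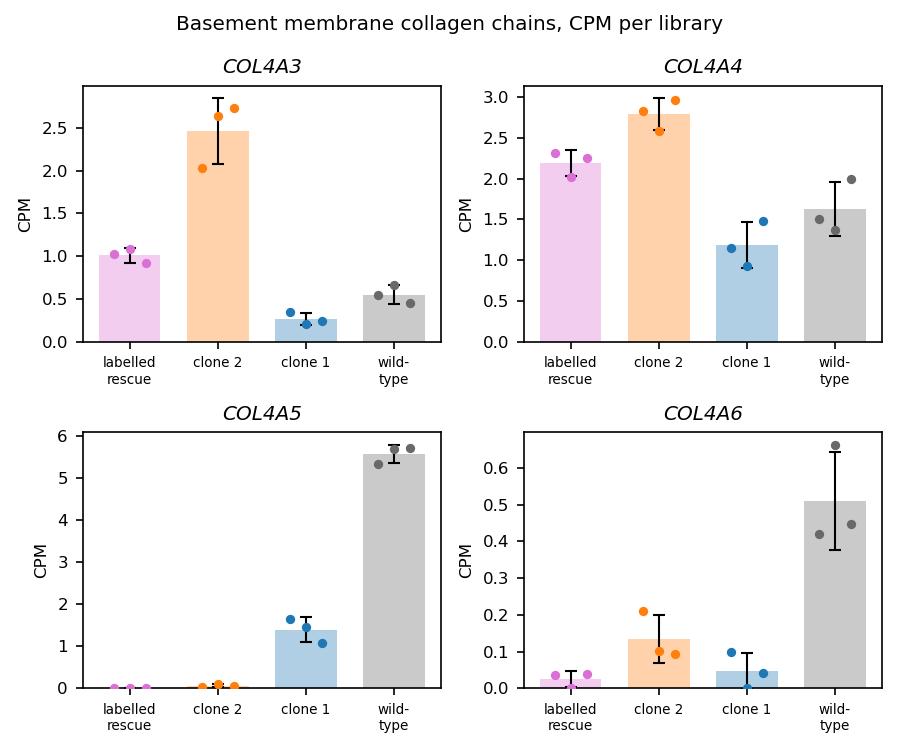
CPM of the 4 basement membrane chains in the table (y axis, 1 panel a gene) in the libraries labelled rescue, clone 2, clone 1 and wild-type (x axis), with libraries as points, means as bars and the SD as error bars (n = 3). COL4A3 and COL4A4 peak in clone 2, while COL4A5 and COL4A6 are highest in wild-type.

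All 3 type VI chains were higher than wild-type in both clones and lower in the libraries labelled rescue than in clone 2. Their median log2 fold change was 2.79 in clone 1 against wild-type, 0.95 in clone 2 against wild-type and -2.08 in the libraries labelled rescue against clone 2. The summed level was 7.40 ± 0.439 CPM in the libraries labelled rescue, 32.7 ± 1.72 in clone 2, 109.2 ± 1.47 in clone 1 and 16.3 ± 0.641 in wild-type, with no overlap between groups. COL6A1, COL6A2 and COL6A3 encode the chains that assemble as 1 type VI monomer, the first pair being neighbours on chromosome 21 with 93.0 kb between them.

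COL6A1 (chr21:45981737-46005050, plus strand) had 2.31, 2.83 and 2.41 CPM in the libraries labelled rescue, 11.8, 10.3 and 9.44 in clone 2, 63.4, 64.5 and 60.0 in clone 1 and 9.35, 8.86 and 8.89 in wild-type. Clone 1 was far above the rest, and clone 2 only just above wild-type. On the log2 scale its fold change was 2.79 ± 0.065 (SE, adjusted p = 8.92e-32) in clone 1 against wild-type and -2.08 ± 0.11 (SE, adjusted p = 6.85e-19) in the libraries labelled rescue against clone 2. These libraries were also below wild-type, at -1.84 ± 0.11 (SE, adjusted p = 1.47e-17). In clone 2 against wild-type it was 0.24 ± 0.086 (SE, adjusted p = 0.0163), a call lost without clone 2 replicate 1 at 0.11 (adjusted p = 0.317) or wild-type replicate 3 at 0.21 (adjusted p = 0.0729).

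COL6A2 (chr21:46098097-46132849, plus strand) had 2.35, 2.29 and 2.75 CPM in the libraries labelled rescue, 10.0, 8.70 and 7.13 in clone 2, 16.4, 15.4 and 16.4 in clone 1 and 4.61, 4.22 and 4.65 in wild-type. The groups kept the same order without overlap. The fitted log2 fold change was 1.83 ± 0.10 (SE, adjusted p = 3.61e-19) in clone 1 and 0.95 ± 0.11 (SE, adjusted p = 1.45e-09) in clone 2 against wild-type, and -1.82 ± 0.13 (SE, adjusted p = 2.42e-15) in the libraries labelled rescue against clone 2.

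COL6A3 (chr2:237324003-237414375, minus strand) encodes the longest of the 3 and had 2.64, 1.90 and 2.71 CPM in the libraries labelled rescue, 12.7, 13.4 and 14.6 in clone 2, 30.3, 30.1 and 31.1 in clone 1 and 2.43, 2.51 and 3.31 in wild-type. Clone 1 was highest and clone 2 next, while the libraries labelled rescue overlapped wild-type. The log2 fold change was 3.45 ± 0.097 (SE, adjusted p = 3.82e-29) in clone 1 and 2.27 ± 0.11 (SE, adjusted p = 8.64e-21) in clone 2 against wild-type. Set against clone 2, the libraries labelled rescue were lower, at -2.48 ± 0.11 (SE, adjusted p = 3.86e-21), and their difference from wild-type was -0.20 ± 0.15 (SE, adjusted p = 0.262).

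Type IX chains had the largest median fold change in clone 1 among the classes with more than 1 tested chain. The 2 tested, COL9A2 and COL9A3, had a median log2 fold change of 3.57 against wild-type. The summed level of the 3 chains was 33.4 ± 2.15 CPM in the libraries labelled rescue, 41.3 ± 1.41 in clone 2, 200.2 ± 5.42 in clone 1 and 15.1 ± 1.17 in wild-type.

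COL9A2 (chr1:40300487-40317813, minus strand) had 31.9, 29.2 and 28.9 CPM in the libraries labelled rescue, 34.5, 32.9 and 33.8 in clone 2, 146.4, 139.3 and 143.0 in clone 1 and 7.72, 7.54 and 8.51 in wild-type. The 4 groups were apart, with wild-type lowest and clone 1 highest. Its log2 fold change was 4.16 ± 0.055 (SE, adjusted p = 3.19e-40) in clone 1, 2.08 ± 0.066 (SE, adjusted p = 6.51e-27) in clone 2 and 1.91 ± 0.066 (SE, adjusted p = 1.03e-25) in the libraries labelled rescue, each against wild-type. Only slightly below clone 2 were the libraries labelled rescue, at -0.17 ± 0.051 (SE, adjusted p = 0.00652), and this call was lost without rescue replicate 3 at -0.13 (adjusted p = 0.0704) or clone 2 replicate 1 at -0.14 (adjusted p = 0.0609).

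COL9A3 (chr20:62816244-62841159, plus strand) had 3.89, 3.02 and 2.98 CPM in the libraries labelled rescue, 8.38, 7.08 and 7.18 in clone 2, 58.5, 54.7 and 57.6 in clone 1 and 8.56, 6.35 and 6.62 in wild-type. Clone 1 lay far above the rest, clone 2 overlapped wild-type, and the libraries labelled rescue were lowest. The log2 fold change was 2.99 ± 0.076 (SE, adjusted p = 1.16e-30) in clone 1 against wild-type, 0.088 ± 0.11 (SE, adjusted p = 0.479) in clone 2 against wild-type and -1.20 ± 0.12 (SE, adjusted p = 1.12e-10) in the libraries labelled rescue against clone 2. COL9A1, the remaining chain of the type IX trimer, had 11 reads over the libraries labelled rescue, 3 over clone 2, 25 over clone 1 and 2 over wild-type, and the ratio of clone 1 to wild-type was 12.8 (exact 95% interval 3.18 to 111.2).

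**Figure D4:**
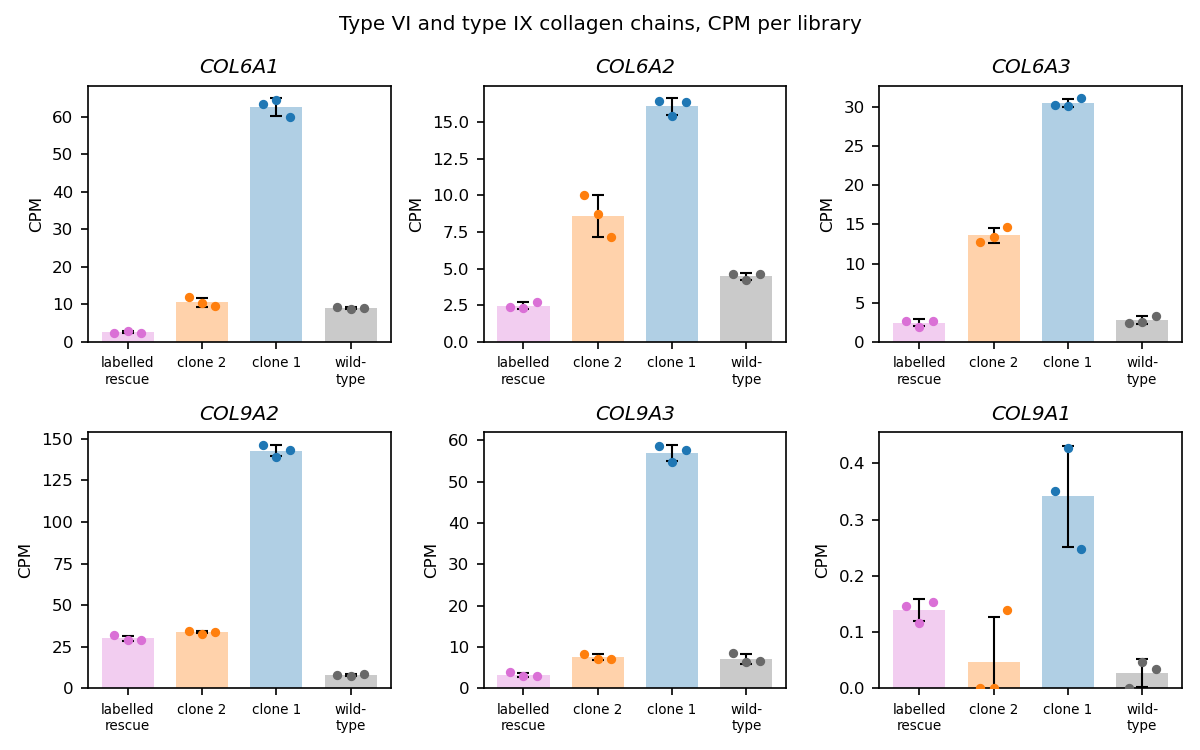
CPM of the type VI chains (top row) and type IX chains (bottom row), 1 panel a gene, in the libraries labelled rescue, clone 2, clone 1 and wild-type (x axis), with libraries as points, means as bars and the SD as error bars (n = 3). Every chain is highest in clone 1, and the y axis of COL9A1 ends below 1 CPM.

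Levels of different chains were compared per kilobase of exon, since longer genes give more reads. On that scale COL5A2 led with 20.8 ± 0.965 CPM per kilobase in the libraries labelled rescue, 26.3 ± 1.71 in clone 2 and 28.5 ± 1.37 in wild-type, above the next chain in every library of these groups. In clone 1 COL3A1 led with 41.9 ± 1.17 CPM per kilobase, ahead of COL9A2 with 33.9 ± 0.836 and COL5A2 with 32.2 ± 0.797, again in each of its libraries. COL21A1 and COL13A1 were among the next highest chains in wild-type, at 15.3 ± 0.143 for COL21A1 and 9.57 ± 0.627 for COL13A1.

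Chains that share a molecule were often far apart in level. COL1A1 was at 1.26 ± 0.0613 CPM per kilobase in the libraries labelled rescue, 6.63 ± 0.681 in clone 2, 11.2 ± 0.290 in clone 1 and 2.79 ± 0.116 in wild-type. COL1A2, its partner in type I collagen, was at 0.00454 ± 0.00201 CPM per kilobase in the libraries labelled rescue, 0.00394 ± 0.000727 in clone 2, 0.0289 ± 0.0116 in clone 1 and 0.00283 ± 0.00490 in wild-type. Type I collagen can also form as a trimer of alpha 1 chains alone. The ratio of COL5A1 to COL5A2 was 0.133 ± 0.00633 in the libraries labelled rescue, 0.115 ± 0.00194 in clone 2, 0.0105 ± 0.000500 in clone 1 and 0.0421 ± 0.00195 in wild-type. This ratio was lowest in clone 1, where COL5A1 was lower and COL5A2 slightly higher than in wild-type.

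The chains of types VI and IX were set against each other in the same way, per kilobase. COL6A2 was at 0.981 ± 0.168 times COL6A1 in the libraries labelled rescue, 0.809 ± 0.0518 in clone 2, 0.255 ± 0.0168 in clone 1 and 0.493 ± 0.0238 in wild-type. COL6A3 was at 0.267 ± 0.0729 times COL6A1 in the libraries labelled rescue, 0.356 ± 0.0643 in clone 2, 0.133 ± 0.00730 in clone 1 and 0.0831 ± 0.0161 in wild-type. For both ratios to COL6A1 the libraries labelled rescue overlapped clone 2. COL9A3 was at 0.0955 ± 0.00946 times COL9A2 in the libraries labelled rescue, 0.195 ± 0.0149 in clone 2, 0.347 ± 0.00441 in clone 1 and 0.792 ± 0.153 in wild-type. COL9A2 thus led COL9A3 by the smallest margin in wild-type, and COL9A1 stayed below 0.05 CPM per kilobase in every group mean.

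**Figure D5:**
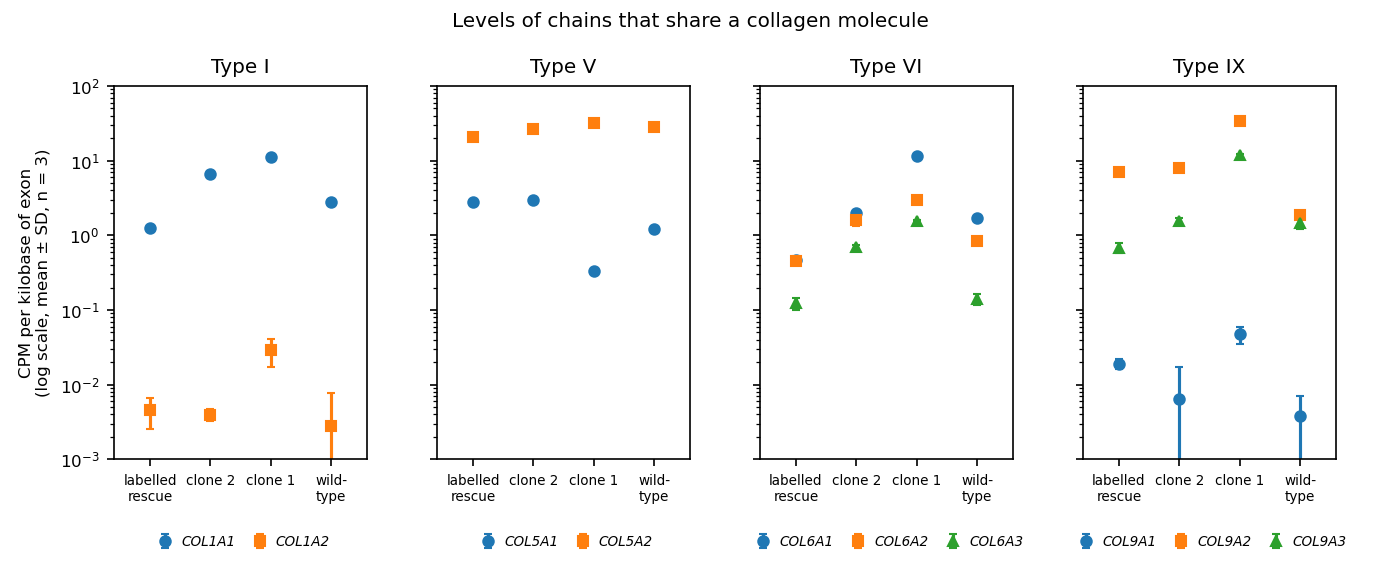
Level of chains that share a collagen molecule, in CPM per kilobase of exon on a log scale (y axis, mean ± SD, n = 3), in the libraries labelled rescue, clone 2, clone 1 and wild-type (x axis), for types I, V, VI and IX. Error bars that reach 0 run off the log axis. COL1A2 and COL9A1 lie far below their partners in every group.

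The other FACIT chains, which also decorate fibrils, ranged from a large rise in clone 1 to almost none. Of the 4 tested, 3 were higher in clone 1 and 2 in clone 2 against wild-type, and in the libraries labelled rescue 2 were higher and 2 lower than in clone 2. COL14A1, which binds fibril surfaces in skin and tendon, had 0.881, 0.542 and 0.650 CPM in the libraries labelled rescue, 1.36, 2.28 and 3.24 in clone 2, 7.50, 6.58 and 7.12 in clone 1 and 1.30, 0.900 and 1.62 in wild-type. Clone 1 stood above and the libraries labelled rescue below all others. The fold change (log2) was 2.42 ± 0.19 (SE, adjusted p = 2.1e-14) in clone 1 against wild-type and -1.67 ± 0.27 (SE, adjusted p = 2.81e-06) in the libraries labelled rescue against clone 2. In clone 2, which overlapped wild-type, the call at 0.76 ± 0.24 (SE, adjusted p = 0.00548) was lost without clone 2 replicate 3 at 0.41 (adjusted p = 0.16).

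COL16A1 had 2.53, 2.33 and 3.10 CPM in the libraries labelled rescue, 4.01, 3.79 and 3.61 in clone 2, 8.90, 8.32 and 8.93 in clone 1 and 2.06, 2.13 and 1.79 in wild-type, with all 4 groups apart. Fitted over all libraries, the log2 fold change was 2.13 ± 0.13 (SE, adjusted p = 6.53e-18) in clone 1 and 0.95 ± 0.15 (SE, adjusted p = 7.73e-07) in clone 2 against wild-type, and -0.53 ± 0.14 (SE, adjusted p = 0.00232) in the libraries labelled rescue against clone 2. COL19A1, found at basement membrane zones and next to COL9A1 on chromosome 6, had 39.0, 37.8 and 42.1 CPM in the libraries labelled rescue, 35.6, 35.3 and 36.9 in clone 2, 67.8, 65.3 and 61.7 in clone 1 and 31.3, 35.1 and 34.2 in wild-type. Clone 1 was highest, at 0.95 ± 0.050 (SE, adjusted p = 7.27e-20) against wild-type, and the other 3 groups were close to each other. COL19A1 was higher in the libraries labelled rescue than in clone 2, at 0.14 ± 0.052 (SE, adjusted p = 0.0287), a call lost without rescue replicate 3 at 0.11 (adjusted p = 0.133) or clone 2 replicate 1 at 0.15 (adjusted p = 0.0605), with upper quartile scaling at 0.12 (adjusted p = 0.074) and with the DESeq2 Wald test at 0.14 (adjusted p = 0.0545).

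COL21A1, an abundant chain that varied little, had 110.3, 110.8 and 108.9 CPM in the libraries labelled rescue, 104.2, 105.9 and 97.9 in clone 2, 108.2, 105.5 and 109.7 in clone 1 and 107.4, 109.3 and 109.0 in wild-type. No difference between a clone and wild-type was called for it, at -0.011 ± 0.036 (SE, adjusted p = 0.812) in clone 1 and -0.080 ± 0.036 (SE, adjusted p = 0.0527) in clone 2. The clone 2 difference was called lower in 6 alternative fits, with no filter (adjusted p = 0.00913), limma-voom (adjusted p = 0.0469), the replicate block (adjusted p = 0.0496), and without clone 2 replicate 1 (adjusted p = 0.0324), clone 2 replicate 2 (adjusted p = 0.0155) or wild-type replicate 1 (adjusted p = 0.036). Above clone 2 were the libraries labelled rescue, by 0.099 ± 0.036 (SE, adjusted p = 0.0261), a call lost without clone 2 replicate 3 at 0.079 (adjusted p = 0.109) and with upper quartile scaling at 0.073 (adjusted p = 0.109).

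Of the transmembrane chains, COL13A1, found at neuromuscular junctions and cell adhesions, had 64.7, 54.5 and 63.1 CPM in the libraries labelled rescue, 95.0, 96.7 and 99.0 in clone 2, 58.4, 55.0 and 59.2 in clone 1 and 52.8, 60.2 and 56.1 in wild-type. Clone 2 lay above all other libraries, which overlapped. On the log2 scale its fold change was 0.78 ± 0.049 (SE, adjusted p = 2.38e-17) in clone 2 against wild-type and -0.67 ± 0.048 (SE, adjusted p = 7.74e-15) in the libraries labelled rescue against clone 2, and 0.030 ± 0.051 (SE, adjusted p = 0.637) in clone 1 against wild-type. COL25A1, a brain collagen that binds amyloid deposits, had 3.96, 4.53 and 4.40 CPM in the libraries labelled rescue, 4.96, 6.58 and 5.14 in clone 2, 10.8, 9.99 and 9.84 in clone 1 and 3.15, 4.36 and 3.79 in wild-type. It was highest in clone 1, at 1.44 ± 0.12 (SE, adjusted p = 4.44e-14) against wild-type, with clone 2 next at 0.55 ± 0.13 (SE, adjusted p = 0.000344). The libraries labelled rescue were below clone 2, at -0.35 ± 0.12 (SE, adjusted p = 0.0215), a call lost without rescue replicate 1 at -0.28 (adjusted p = 0.111) or clone 2 replicate 2 at -0.22 (adjusted p = 0.211).

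COL7A1, which forms the anchoring fibrils under the epidermis, had 5.69, 5.42 and 5.58 CPM in the libraries labelled rescue, 9.18, 8.91 and 7.41 in clone 2, 11.7, 11.7 and 9.84 in clone 1 and 4.53, 5.54 and 4.45 in wild-type. Both clones lay above wild-type, which overlapped the libraries labelled rescue. The fitted log2 fold change was 1.20 ± 0.11 (SE, adjusted p = 5.08e-13) in clone 1 and 0.83 ± 0.11 (SE, adjusted p = 2.23e-08) in clone 2 against wild-type, and -0.62 ± 0.11 (SE, adjusted p = 9.18e-06) in the libraries labelled rescue against clone 2. COL8A2, a network-forming chain of the cornea, had 0, 0.0775 and 0.0765 CPM in the libraries labelled rescue, 0.105, 0.0506 and 0.278 in clone 2, 2.20, 1.92 and 1.81 in clone 1 and 0.336, 0.190 and 0.207 in wild-type. Clone 1 lay above all other libraries, at 2.99 ± 0.33 (SE, adjusted p = 2.02e-10) against wild-type. The libraries labelled rescue, with 4 reads, were below wild-type, at -2.16 ± 0.70 (SE, adjusted p = 0.00797), a call lost without rescue replicate 1 at -1.60 (adjusted p = 0.0577).

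COL18A1, whose C-terminal fragment is endostatin, had 0.624, 0.581 and 0.612 CPM in the libraries labelled rescue, 1.29, 1.06 and 0.926 in clone 2, 1.85, 2.31 and 1.81 in clone 1 and 0.839, 0.900 and 0.793 in wild-type, with the groups apart. It shares 16.4% of its exon length with SLC19A1 on the opposite strand, and the strand setting of the counting is not given, so its level is uncertain. Its log2 fold change was 1.25 ± 0.22 (SE, adjusted p = 4.96e-06) in clone 1 against wild-type. Against clone 2, the value in the libraries labelled rescue was -0.87 ± 0.27 (SE, adjusted p = 0.00786), a call lost without clone 2 replicate 1 at -0.69 (adjusted p = 0.083). The related COL15A1 stayed below 1 CPM, with 18 reads over the libraries labelled rescue, 58 over clone 2, 1 over clone 1 and 6 over wild-type, and was higher in clone 2 than in wild-type, at 3.28 ± 0.48 (SE, adjusted p = 1.28e-07). COL12A1 and COL28A1, which did not pass the filter, had between 9 and 24 and between 6 and 18 reads a group.

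Genes that build collagen outside the chains were taken from lists of folding enzymes and chaperones, of trimming and crosslinking proteins, of receptors and of collagenases. Among 23 tested genes of chain folding and modification, 14 were higher and 5 lower in clone 1 against wild-type, 5 higher and 9 lower in clone 2, and 6 higher and 6 lower in the libraries labelled rescue against clone 2. The called share was 82.6% in clone 1, where 61.5% of all genes were called, 60.9% in clone 2, close to the 62.1% of all genes, and 52.2% in the libraries labelled rescue against clone 2, where it was 39.2%. SERPINH1, the chaperone HSP47 that binds the collagen helix, averaged 65.1 ± 2.66 CPM in the libraries labelled rescue, 49.2 ± 2.84 in clone 2, 76.5 ± 3.48 in clone 1 and 122.9 ± 7.12 in wild-type. It was below wild-type in both clones, at -0.69 ± 0.044 (SE, adjusted p = 3.46e-17) in clone 1 and -1.32 ± 0.046 (SE, adjusted p = 2.21e-25) in clone 2, while 18 and 17 collagen chains were higher there. P4HA2, a catalytic subunit of prolyl 4-hydroxylase, averaged 11.8 ± 0.412 CPM in the libraries labelled rescue, 10.6 ± 0.340 in clone 2, 18.7 ± 0.196 in clone 1 and 7.21 ± 0.596 in wild-type and was higher in clone 1 at 1.38 ± 0.078 (SE, adjusted p = 7.08e-19).

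PLOD3, a lysyl hydroxylase, was higher in both clones, at a log2 fold change of 0.68 ± 0.049 (SE, adjusted p = 2.2e-15) in clone 1 and 0.47 ± 0.050 (SE, adjusted p = 9.99e-11) in clone 2 against wild-type. PLOD2, the lysyl hydroxylase of the chain ends, was higher in clone 1, at 0.43 ± 0.037 (SE, adjusted p = 1.85e-13), and lower in clone 2, at -0.56 ± 0.040 (SE, adjusted p = 1.12e-15). FKBP10, a folding enzyme and chaperone, was higher in clone 1, at 0.74 ± 0.042 (SE, adjusted p = 9.85e-19). In the libraries labelled rescue against clone 2 CRTAP, part of the prolyl 3-hydroxylase complex, was higher, at 0.50 ± 0.034 (SE, adjusted p = 1.61e-15), and P3H2, a prolyl 3-hydroxylase, lower, at -0.81 ± 0.11 (SE, adjusted p = 1.26e-07).

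Of 14 tested genes of trimming and crosslinking, 3 were higher and 6 lower in clone 1 against wild-type, 6 higher and 6 lower in clone 2, and 5 higher and 2 lower in the libraries labelled rescue against clone 2. That is 64.3% of the list in clone 1, close to the 61.5% of all genes, 85.7% in clone 2 beside 62.1% of all genes, and 7 of the 14 in the libraries labelled rescue against clone 2 beside 39.2% of all genes. PCOLCE, which enhances removal of the C-terminal propeptide of fibrillar chains, averaged 4.24 ± 0.553 CPM in the libraries labelled rescue, 5.93 ± 1.65 in clone 2, 55.1 ± 1.71 in clone 1 and 40.0 ± 0.309 in wild-type. It was lower in clone 2 than in wild-type, at -2.71 ± 0.087 (SE, adjusted p = 1.19e-26). SPARC, a collagen-binding matrix protein, averaged 473.1 ± 13.0 CPM in the libraries labelled rescue, 390.2 ± 5.93 in clone 2, 831.1 ± 25.8 in clone 1 and 188.8 ± 1.60 in wild-type and was above wild-type in clone 1 by 2.14 ± 0.032 (SE, adjusted p = 2.36e-38) and in clone 2 by 1.05 ± 0.032 (SE, adjusted p = 3.18e-27). LOXL2, a crosslinking oxidase, was above wild-type in clone 1 by 1.95 ± 0.091 (SE, adjusted p = 1.23e-21). LOXL1, of the same family, was below wild-type in clone 1, at -0.59 ± 0.077 (SE, adjusted p = 1.27e-08). In clone 2 LOXL1 was above wild-type, at 0.92 ± 0.064 (SE, adjusted p = 8.82e-16). PXDN, the peroxidase that crosslinks type IV collagen, averaged 59.2 ± 1.01 CPM in the libraries labelled rescue, 49.0 ± 2.69 in clone 2, 54.3 ± 0.490 in clone 1 and 137.3 ± 4.91 in wild-type and was below wild-type, at -1.34 ± 0.040 (SE, adjusted p = 4.83e-28) in clone 1 and -1.49 ± 0.041 (SE, adjusted p = 8.35e-29) in clone 2.

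Of 9 tested collagen receptors, 3 were higher and 2 lower in clone 1 against wild-type, 1 higher and 4 lower in clone 2, and 1 higher and 1 lower in the libraries labelled rescue against clone 2. The called share of these 9 was 55.6% in clone 1 and 55.6% in clone 2, close to the 61.5% and 62.1% of all genes. In the libraries labelled rescue against clone 2 it was 22.2%, beside 39.2% of all genes. The discoidin domain receptor DDR2, a tyrosine kinase that binds fibrillar collagen, averaged 40.5 ± 1.53 CPM in the libraries labelled rescue, 43.5 ± 1.62 in clone 2, 54.7 ± 2.46 in clone 1 and 101.7 ± 0.523 in wild-type. DDR2 was below wild-type, at -0.89 ± 0.041 (SE, adjusted p = 1.16e-21) in clone 1 and -1.23 ± 0.043 (SE, adjusted p = 2.45e-25) in clone 2. DDR1, its relative on epithelial cells, was also below wild-type, at -0.58 ± 0.050 (SE, adjusted p = 3.17e-13) in clone 1 and -0.72 ± 0.051 (SE, adjusted p = 1.03e-15) in clone 2. ADGRG6, an adhesion receptor that binds type IV collagen, averaged 22.3 ± 0.923 CPM in the libraries labelled rescue, 22.2 ± 0.604 in clone 2, 84.3 ± 2.38 in clone 1 and 20.3 ± 1.83 in wild-type, and was above wild-type in clone 1 by 2.04 ± 0.052 (SE, adjusted p = 1.62e-30). MRC2, the receptor that takes collagen up for breakdown, was lower in the libraries labelled rescue than in clone 2, at -0.64 ± 0.038 (SE, adjusted p = 1.72e-17).

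Of 6 tested collagenases and related proteases, 5 were higher and 1 lower in clone 1 against wild-type, 3 higher and 2 lower in clone 2, and 4 lower in the libraries labelled rescue against clone 2. Over all genes 61.5% were called in clone 1, 62.1% in clone 2 and 39.2% in the libraries labelled rescue against clone 2. MMP2, a gelatinase, averaged 0.0251 ± 0.0218 CPM in the libraries labelled rescue, 0.178 ± 0.0575 in clone 2, 5.22 ± 0.527 in clone 1 and 1.95 ± 0.141 in wild-type. It was higher in clone 1 than in wild-type by 1.41 ± 0.15 (SE, adjusted p = 1.96e-10) and lower in clone 2, at -3.36 ± 0.31 (SE, adjusted p = 2.93e-12). MMP14, the membrane collagenase, was below wild-type, at -0.87 ± 0.062 (SE, adjusted p = 1.29e-15) in clone 1 and -1.10 ± 0.065 (SE, adjusted p = 2.89e-18) in clone 2. CTSK, the collagen-cutting cathepsin of bone resorption, was above wild-type by 0.84 ± 0.16 (SE, adjusted p = 1.4e-05) in clone 1 and 1.00 ± 0.16 (SE, adjusted p = 5.99e-07) in clone 2. MMP1 and MMP9, with means below 1 CPM over the 12 libraries, were also called higher than wild-type in both clones. MMP1 had 159 reads over clone 2, 11 over clone 1 and 1 over wild-type.

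Marker lists of the tumour and of other cell types were set beside the collagen results, and the lists differed in direction. Ewing sarcoma markers, 10 of 10 in the table, summed to between 2385 and 2400.0 CPM in the libraries labelled rescue, 2706 and 2833 in clone 2, 2838 and 2926 in clone 1, and 2788 and 2839 in wild-type. In clone 1 5 were higher and 5 lower than in wild-type, in clone 2 5 and 3, and in the libraries labelled rescue 1 was higher and 6 lower than in clone 2. Beside this and the other marker lists, 61.5% of all genes were called in clone 1 and 62.1% in clone 2 against wild-type. In the libraries labelled rescue against clone 2 that share was 39.2%. Fibroblast markers, 7 of 8 in the table, summed to between 110.1 and 121.8 CPM in the libraries labelled rescue, 181.2 and 190.3 in clone 2, 268.7 and 299.7 in clone 1, and 210.6 and 214.5 in wild-type. All 7 were at 1 CPM or more in wild-type TC71. Against wild-type 4 of the 7 were higher and 3 lower in clone 1, and 1 higher and 5 lower in clone 2, while against clone 2 the libraries labelled rescue had 1 higher and 3 lower. The sum was highest in clone 1 and lowest in the libraries labelled rescue, but single markers differed in their order. PDGFRB averaged 24.7 ± 2.29 CPM in the libraries labelled rescue, 66.3 ± 0.752 in clone 2, 159.9 ± 6.66 in clone 1 and 96.4 ± 2.11 in wild-type. FBLN1 ran the other way in clone 1, with 83.8 ± 3.28 CPM in the libraries labelled rescue, 89.2 ± 6.84 in clone 2, 27.6 ± 1.17 in clone 1 and 60.7 ± 2.21 in wild-type. PDGFRA was near 0 outside wild-type, at 0.0255 CPM in the libraries labelled rescue, 0.0492 in clone 2, 0.0874 in clone 1 and 8.84 in wild-type.

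Epithelial markers, 4 of 6 in the table, summed to between 76.9 and 86.7 CPM in the libraries labelled rescue, 152.4 and 190.7 in clone 2, 882.9 and 950.5 in clone 1, and 115.0 and 121.5 in wild-type. Keratins made up most of these sums. In clone 1 KRT8 averaged 504.4 CPM and KRT18 378.0, beside 18.7 for EPCAM and 19.4 for CLDN4. In wild-type KRT18 averaged 108.0 CPM and KRT8 7.59. All 4 were higher than wild-type in both clones and lower in the libraries labelled rescue than in clone 2. Over all genes 30.8% were higher in clone 1 and 31.5% in clone 2, and 19.9% were lower in the libraries labelled rescue against clone 2. Cartilage cell markers, 2 of 7 in the table, summed to between 3.97 and 4.17 CPM in the libraries labelled rescue, 4.22 and 4.96 in clone 2, 4.77 and 6.36 in clone 1, and 2.75 and 3.06 in wild-type. The only endothelial marker in the table, CDH5, stayed at or below 0.25 CPM in every library. The part of these lists in the collagen results was not tested.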

How the data were processed

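The authors deposited raw counts per gene, 1 column per library. Per the labels' protocols, RNA was column-purified and made into stranded poly(A) libraries. FastQC, STAR and hg38 are named in the submitters' processing notes, with no versions. The counter, its strand setting and annotation, and how the 21569 rows were chosen, are not given in the labels or files. Titles gave the groups.

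Symbols came from a table that matched 20717 identifiers, and positions and exon lengths from GENCODE release 29, which held 20825. The chains and lists were chosen with earlier results of these data known. The test was edgeR 4.0.16 (R 4.3.3), quasi-likelihood, after TMM scaling and filterByExpr with a minimum count of 10. A mean was fitted for each group, which left 8 residual degrees of freedom. Genes kept numbered 17084 and took 99.9% or more of every library's counts. Both clones were compared with wild-type, the libraries labelled rescue with clone 2 and with wild-type, and clone 2 with clone 1. Chains with a mean of 1 CPM or more in a group are given in every library, and other pathway genes were named from up to 4 called members per list and comparison by fold change, among those with a mean of 1 CPM or more over the 12 libraries. MMP1 and MMP9 were named in addition. Groups without reads got a floor of 3 counts, and ratios with 1 to 3 reads exact 95% intervals, which cover counting error only. Promoters are RefSeq sequences on GRCh38.p14.

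No library repeated another, since pairs within groups had a chi-square of 1.59 to 3.41 per degree of freedom. Same-numbered libraries of clone 2 and clone 1 had r of 0.105, 0.163 and 0.175, and differently numbered ones had -0.135 to -0.0216. Their title numbers may pair these groups, but no label says so. No other comparison had all 3 same-numbered values above 0.1, though clone 2 and wild-type had -0.0088, 0.157 and 0.229. Differently numbered libraries reached like sizes in other comparisons. Values were 0.127 for rescue replicate 1 with clone 2 replicate 2, and 0.117 for clone 2 replicate 1 with wild-type replicate 2. Clone 2 replicate 3 with wild-type replicate 2 had -0.237. Other settings tried were size factors from DESeq2, upper quartile scaling, no filter, a minimum of 1 CPM in 3 libraries, a Wald test in DESeq2 1.42.0, voom in limma 3.58.1, fits to only the groups compared, a replicate block, and leaving out each library. Simulated counts were used to test the procedure.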

Additional observations from a re-analysis of the deposited data

Results flagged for a closer look

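The 2 knockout clones differed from each other on 23 collagen chains, in a direct test of clone 2 against clone 1 (edgeR's quasi-likelihood test, adjusted p up to 0.000834), which is what singled these chains out. The same test called 62.2% of all genes tested, so differences between the clones were not limited to collagen chains. On the log2 scale the chains higher in clone 2 were COL15A1 at 5.47, COL27A1 at 3.25, COL4A3 at 3.18, COL5A1 at 3.15, COL4A4 at 1.25 and COL13A1 at 0.75. COL15A1 had 58 reads over clone 2 and 1 over clone 1, a ratio of 60.0 (exact 95% interval 10.3 to 2410), so its fitted value rests on 1 read.

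The chains lower in clone 2 than in clone 1 were COL4A5 at -4.48, COL8A2 at -3.73, COL9A3 at -2.90, COL6A1 at -2.56, COL3A1 at -2.29, COL9A2 at -2.08, COL14A1 at -1.66, COL16A1 at -1.18 and COL6A3 at -1.17, and by less than that COL5A3 at -0.91, COL25A1 at -0.89, COL6A2 at -0.88, COL18A1 at -0.85, COL19A1 at -0.85, COL1A1 at -0.75, COL7A1 at -0.37 and COL5A2 at -0.29. COL4A5 had 4 reads over clone 2 and 100 over clone 1. None of these 23 calls was lost in any alternative fit that tested the chain.

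Of these chains 5 were called in opposite directions in the clones against the same wild-type libraries. How many of all genes had opposite calls was not counted, so this number describes these chains alone. Of all genes tested, 30.8% were higher and 30.7% lower than wild-type in clone 1, and 31.5% and 30.6% in clone 2. Opposite calls are thus not given as a trait of collagen chains. COL3A1 and COL5A2 were lower than wild-type in clone 2 and higher in clone 1, and COL5A1, COL4A3 and COL4A4 were higher than wild-type in clone 2 and lower in clone 1. COL3A1 and COL5A1 kept both calls in the 14 alternative fits of each comparison, while COL5A2, COL4A3 and COL4A4 each lost a call against wild-type under some of them.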

How the results depend on the processing

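Of 3079 fold changes recomputed under the alternatives, 2978 kept their direction and their side of the threshold, 68 fell short of it, 25 newly passed it and 8 turned round. Upper quartile scaling left 3 chains called higher in the libraries labelled rescue against clone 2, in place of 5. COL19A1 and COL21A1 lost the call. Over all genes this scaling called 2776 higher and 3871 lower there, in place of 3304 and 3397. The cause was not tested. All other counts of chains called stayed within 1.5 times under every alternative run. On leaving out a library the counts ranged as follows, higher and then lower. They were 18 and 5 to 7 in clone 1 against wild-type, 15 to 17 and 4 to 6 in clone 2 against wild-type, 4 to 5 and 16 to 20 in the libraries labelled rescue against clone 2, 6 to 10 and 11 to 13 in those libraries against wild-type, and 6 to 7 and 17 to 18 in clone 2 against clone 1.

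The 8 fold changes that turned round had not been called, and each did so on leaving out 1 library. Over these fits COL13A1 ranged from -0.022 to 0.076 and COL21A1 from -0.032 to 0.012 in clone 1 against wild-type, COL27A1 from -0.28 to 0.11 and COL9A3 from -0.021 to 0.21 in clone 2 against wild-type, COL2A1 from -0.027 to 0.16 in the libraries labelled rescue against clone 2, and COL11A2 from -0.069 to 0.13, COL24A1 from -0.022 to 0.079 and COL2A1 from -0.043 to 0.16 in clone 2 against clone 1.

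No label pairs same-numbered libraries in any comparison, and whether they are paired is not known. With a replicate block over all 12 libraries, clone 2 against clone 1 had 6 chains higher and 17 lower, as without it. The block gave 18 chains higher and 6 lower in clone 1 against wild-type, and 17 and 6 in clone 2 against wild-type. In the libraries labelled rescue it gave 5 and 18 against clone 2, and 11 and 13 against wild-type. The depth limits chains with few reads, COL1A2, COL4A6, COL9A1 and COL15A1 among them, and an absent read allows up to 3 counts over a group.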
